A study of Mus musculus with 8 samples.

Results

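The genes described here encode core proteins of the spliceosome, the SR proteins, the heterogeneous nuclear ribonucleoproteins (hnRNPs) and the DEAD-box RNA helicases Ddx5 and Ddx17. The set was proposed with earlier results of these data known, and its members were then taken by symbol: names starting with Snrp or Hnrnp, Srsf followed by a number, or Sf3a or Sf3b followed by a number, plus Ddx5 and Ddx17, leaving out the imprinted gene Snrpn and pseudogenes. The rule found 53 of the 32285 genes in the count matrices. By role, 7 encode proteins of the Sm ring shared by the spliceosomal snRNPs, 2 are specific to the U1 snRNP, 2 are specific to the U2 snRNP, 9 belong to the SF3 complexes of the U2 snRNP, 11 are SR proteins, 20 are hnRNPs and 2 are DEAD-box helicases. All 53 were found in the gene annotation, where their median length was 10147 bases against 12268 for all listed genes.

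Nuclear RNA was sequenced from C57BL/6JN mice aged 3 or 21 months, in the caudate putamen and the hippocampus (anterior), with 2 libraries for each region and age. Each library pooled equal shares of nuclei from both sexes, 1 animal of each, taken from punches of the left hemisphere, released in EZ Prep lysis buffer and sorted on Hoechst dye before droplet capture with the 10x Genomics v3.1 chemistry. No allele or treatment separated the groups, so age and region were the only labelled differences. The labels do not say whether a hippocampal and a caudate putamen library came from the same animals, and p-values measure only the spread between these libraries.

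Introns are removed from nuclear pre-mRNA by the spliceosome, which is built from small nuclear ribonucleoproteins (snRNPs): the U1 snRNP recognises the start of the intron and the U2 snRNP, with SF3a and SF3b, its branch site. A ring of Sm proteins wraps each spliceosomal snRNA except U6. SR proteins mostly promote the use of nearby splice sites and hnRNPs often oppose it, and brain cell types differ in many of the exons they include.

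Promoter sequences are shown for 6 genes that the age results below turn on, so that genes that moved together can be set beside Snrpe, a subunit of the Snrpf ring with no call. Each line gives the 120 bases upstream of the annotated start, 5′ to 3′ on the gene's strand, from RefSeq on GRCm38.p6. Capitals mark a match, on either strand, to any of the motifs named in the paragraph after them.
Snrpf, chr10:93589707-93589826, minus strand: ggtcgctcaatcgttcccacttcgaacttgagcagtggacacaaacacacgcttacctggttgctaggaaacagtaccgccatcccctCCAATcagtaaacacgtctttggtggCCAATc
Snrpe, chr1:133610292-133610411, minus strand: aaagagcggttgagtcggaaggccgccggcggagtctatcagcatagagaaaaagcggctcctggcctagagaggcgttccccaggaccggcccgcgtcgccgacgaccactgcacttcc
Ddx5, chr11:106789186-106789305, minus strand: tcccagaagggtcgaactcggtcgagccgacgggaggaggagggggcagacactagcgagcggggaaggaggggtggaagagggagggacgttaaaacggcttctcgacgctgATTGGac
Srsf5, chr12:80945379-80945498, plus strand: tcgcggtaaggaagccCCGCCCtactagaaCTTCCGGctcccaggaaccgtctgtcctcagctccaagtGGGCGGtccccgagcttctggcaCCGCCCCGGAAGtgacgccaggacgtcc
Srsf6, chr2:162931388-162931507, plus strand: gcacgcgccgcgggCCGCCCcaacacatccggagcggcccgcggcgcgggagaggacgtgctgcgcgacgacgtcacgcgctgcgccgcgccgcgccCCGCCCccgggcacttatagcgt
Srsf9, chr5:115327057-115327176, plus strand: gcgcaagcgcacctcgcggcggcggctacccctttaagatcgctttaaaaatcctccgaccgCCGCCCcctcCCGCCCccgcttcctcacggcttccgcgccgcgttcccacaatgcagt

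RefSeq promoters were matched by symbol for 47 of the 53 genes, 10 of them with several entries, of which the first was used. In the 250 bases upstream of the start, the GC box GGGCGG stood in 70.2% of these promoters against 32.9% of all 27018 promoters searched. The ETS core CCGGAAG stood in 34.0% against 7.05%, and CCAAT in 44.7% against 34.5%. TATAAA was found in 10.6% against 12.97%, the heat shock element GAANNTTC in 8.51% against 6.78%, and the palindromic CGCG motif in 0% against 0.407%. Matches were counted on both strands, GGGCGG and CCGGAAG can overlap where they adjoin, and the median GC content was 60.8% for the 47 against 52.0% for all. Among the 7 genes that fell in both medium spiny classes of the caudate putamen, 5 had GGGCGG, 4 had CCAAT, 1 had CCGGAAG, 1 had GAANNTTC and 0 had TATAAA. A match describes the letters only.

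The matrices held 109826 barcodes, of which 97875 nuclei were kept after removing nuclei with few genes, nuclei with much mitochondrial RNA and called doublets. A library held between 67205436 and 234811422 UMIs and between 6387 and 17012 kept nuclei. The 53 genes took 0.298% to 0.341% of a library's UMIs. Libraries shared at most 0.674% of the barcodes of the smaller library. Clusters were named from marker lists as dentate granule-, CA1-, CA3-, D1 medium spiny-, D2 medium spiny-, eccentric medium spiny-, inhibitory interneuron-, oligodendrocyte-, oligodendrocyte precursor (OPC)-, astrocyte-, microglia- and endothelial-like, and 5723 nuclei (5.85%) stayed unnamed. Another 1633 nuclei (1.67%) fell in small clusters of other names, such as fibroblast- and mural-like, which are not used here. Of the hippocampal libraries, the 3-month replicate 2 stood apart: its summed cytosolic ribosomal protein mRNAs in oligodendrocyte-like nuclei came to 3785 CPM (UMIs per 1000000 UMIs of the class in a library), against 2203, 1939 and 2220 in the other 3 libraries, and it held the most barcodes.

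Levels are given as CPM of a class in a library, so they are shares of a class's RNA. Fewer molecules of a gene and more of the other RNA in a nucleus cannot be told apart on this scale. As a whole the 53 genes took the largest share in microglia- and endothelial-like nuclei and the smallest in neurons. In the caudate putamen their summed level was 5922 ± 589 CPM in microglia-like, 5536 ± 369 in endothelial-like, 4419 ± 295 in oligodendrocyte-like, 4410 ± 272 in astrocyte-like and 3943 ± 375 in OPC-like nuclei (SD, n = 4 libraries each). Among its neurons it was 3069 ± 211 in D2 medium spiny-like, 3063 ± 204 in eccentric medium spiny-like, 2972 ± 254 in inhibitory interneuron-like and 2946 ± 196 in D1 medium spiny-like nuclei. In the order of levels, the libraries of neighbouring neuronal classes overlapped, and so did those of oligodendrocyte- and astrocyte-like and of microglia- and endothelial-like nuclei. In the hippocampus the sum ran from 5586 ± 325 CPM in microglia-like nuclei to 2218 ± 167 in CA3-like nuclei (SD, n = 4), with dentate granule-like nuclei at 3067 ± 196, CA1-like at 2587 ± 182 and interneuron-like at 2514 ± 174.

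**Figure D1:**
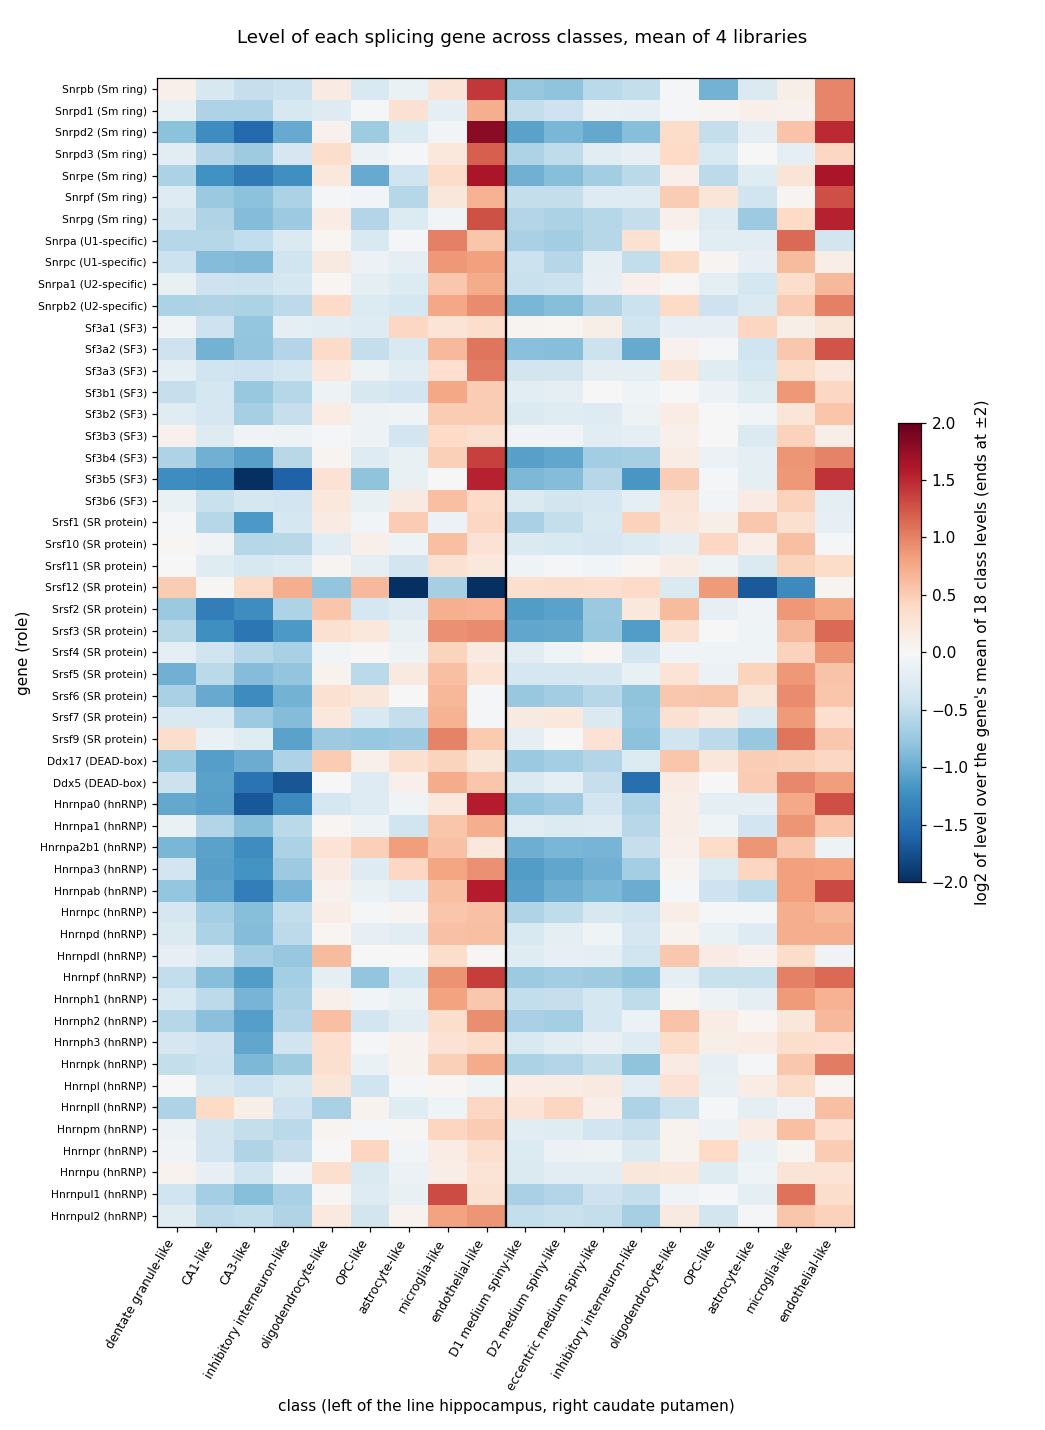
Level of each of the 53 genes (y axis, with its role) in each class (x axis, hippocampus left of the line, caudate putamen right), as the log2 ratio of the mean over 4 libraries to the gene's mean over the 18 class levels. Microglia- and endothelial-like columns are mostly above the gene means and CA3-like columns below, and Srsf12 is high in OPC- and interneuron-like nuclei and low in astrocyte-like nuclei.

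Gene by gene, the level was highest in endothelial-like nuclei for 23 genes and in microglia-like nuclei for another 23 in the caudate putamen. In the hippocampus the highest class was endothelial-like for 28 genes and microglia-like for 16. Few of these first places stood clear of the next class in every library, namely 4 and 5 in the caudate putamen and 10 and 3 in the hippocampus. The lowest class was CA3-like for 35 genes in the hippocampus, and D1 medium spiny-like or interneuron-like for 20 genes each in the caudate putamen. These levels describe clusters and were not tested, and the endothelial-like class rests on 37 to 204 nuclei per library and also held the mural cell marker Rgs5. Such counts were not made over all genes, so the order is not shown to be particular to the splicing genes. Cytosolic ribosomal protein mRNAs summed to 6732, 9281, 8024 and 11824 CPM in endothelial-like nuclei of the hippocampus. In CA3-like nuclei they summed to 732, 995, 763 and 766 CPM. Heat shock and immediate early genes were also higher in endothelial-like than in CA3-like nuclei. The order of other classes differed for the immediate early genes. Their sum was 175, 202, 161 and 173 CPM in CA1-like and 157, 180, 67.8 and 138 CPM in microglia-like nuclei of the hippocampus.

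The span between classes differed among the genes. Sf3b5, a small subunit of SF3b, was 11.5 times as high in endothelial-like (22.2 CPM) as in CA3-like nuclei (1.94 CPM) of the hippocampus, and Snrpd2, an Sm ring subunit, 10.2 times (38.4 against 3.75 CPM). The CA3-like level of Sf3b5 rests on 4 to 16 UMIs per library. Hnrnpu, a nuclear matrix-associated hnRNP, was among the most even, with 1.47 times between the highest and lowest class of the caudate putamen and 1.64 times in the hippocampus. Hnrnpul1, an hnRNP U-like protein, stood clear in microglia-like nuclei of both regions, at 115 ± 1.52 CPM in the caudate putamen and 133 ± 27.4 CPM in the hippocampus (SD, n = 4), against at most 108 and 74.8 CPM in any library of the next class.

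A few genes had another order. Srsf12, an SR protein known as a splicing repressor, was highest in OPC-like nuclei of the caudate putamen (21.0 ± 1.60 CPM, SD, n = 4) and in interneuron-like nuclei of the hippocampus (19.3 ± 1.29 CPM), and lowest in astrocyte-like (3.62 ± 1.90 CPM) and endothelial-like nuclei (1.74 ± 2.69 CPM, on 0 to 7 UMIs per library). Hnrnpa2b1, an hnRNP that binds nascent and trafficked RNAs, was highest in astrocyte-like nuclei, at 634 ± 52.3 CPM in the caudate putamen and 612 ± 51.2 CPM in the hippocampus. Ddx17 and Hnrnpdl were highest in oligodendrocyte-like nuclei of both regions, for Ddx17 342 ± 25.1 and 333 ± 17.9 CPM, and its lead over the next class was within the spread of the libraries.

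Age was tested within each region in the 7 neuronal classes and 4 glial classes chosen for the fits. The eccentric medium spiny- and endothelial-like classes were not among them and are given as levels only, although each held more than 20 nuclei in every library. In the caudate putamen, 9 of the 53 genes fell at 21 months in 1 or more classes and 0 rose, against 2.88% and 2.95% of the 19614 genes tested. These shares are not fully alike, since a gene tested in more classes has more chances of a call. The 53 genes had 362 tests and the 19614 genes had 96905. In all, 245 of the 362 tests of all 53 genes (67.7%) had a negative fold change, against 49.6% of the tests of all genes. The summed level of all 53 genes, in which the abundant ones weigh most, is given first. In D1 medium spiny-like nuclei the summed level was 3148 and 3080 CPM in the 3-month libraries and 2775 and 2781 CPM in the 21-month libraries. In microglia-like nuclei it was 6444 and 6359 CPM against 5685 and 5200 CPM. Both 21-month libraries lay below both 3-month libraries in 8 of the 9 classes of the caudate putamen, with mean differences of -7.12% to -15.0% over all 9, and the endothelial-like class overlapped. Without Ddx5, the sum still lay below in 8 of 9 classes, with differences of -5.07% to -12.6%. By role, the summed levels of SR proteins, hnRNPs and DEAD-box helicases each lay below in 9 of 9 classes, of Sm ring proteins in 8, of U2-specific proteins in 5, and of SF3 and U1-specific proteins in 3, the U1-specific sum lying above in 1, D1 medium spiny-like. Single genes carried some of these sums: without Ddx5, the DEAD-box level, then that of Ddx17 alone, lay below in 2 classes and above in 2, and without Snrpf the Sm ring sum lay below in 2. Both genes were singled out after their values were seen. Such counts were not made for sums of all genes in either region. The classes share the same libraries, so their counts are not independent. In the caudate putamen the summed heat shock and chaperone genes, listed below, also lay below in every class. In the D1 class the ages overlapped for the cytosolic ribosomal sum (1083 and 1033 against 1021 and 1037 CPM). There the immediate early sum overlapped too (263 and 431 against 295 and 423 CPM).

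**Figure D2:**
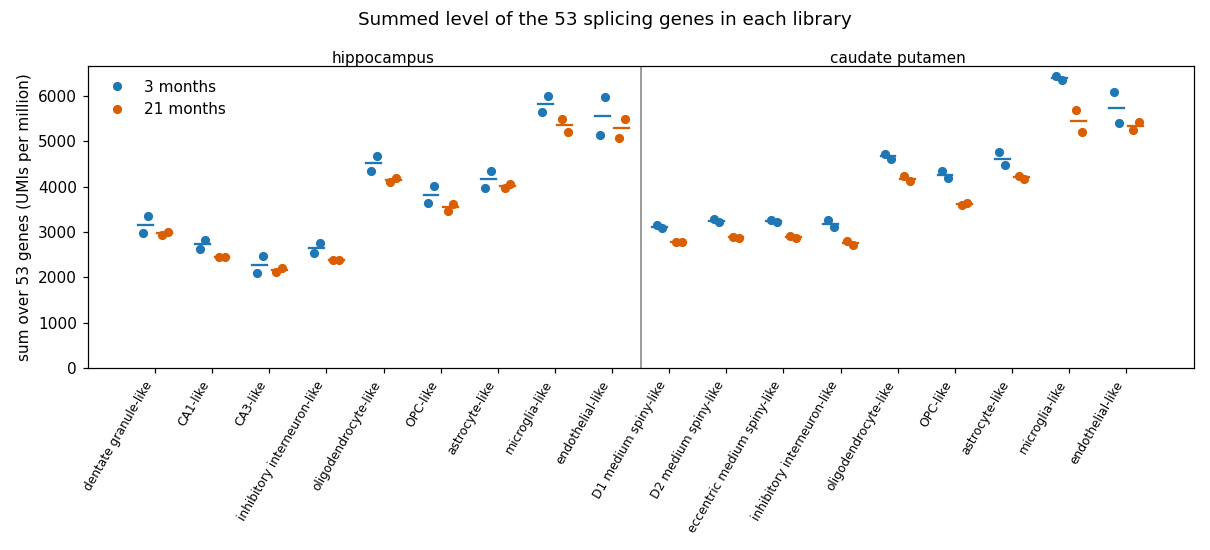
Summed level of the 53 genes (y axis, CPM) in each class (x axis) for each library, hippocampus on the left and caudate putamen on the right. Points are libraries at 3 months (blue) or 21 months (orange) and bars are their means; in D1 medium spiny-like nuclei the blue points are 3148 and 3080 and the orange points 2775 and 2781.

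By edgeR's quasi-likelihood test with Benjamini-Hochberg adjustment over all genes tested in a class, 23 of 362 tests of the 53 genes in 7 caudate putamen classes passed an adjusted p of 0.05 as lower at 21 months, and 0 passed as higher; at an unadjusted p under 0.05 the counts were 76 lower and 6 higher, and DESeq2 called 19 lower and 0 higher. Over all 96905 tests of all genes in these classes, 0.77% passed as lower and 0.701% as higher, 7.11% and 7.59% at an unadjusted p under 0.05, and 1.19% and 0.989% by DESeq2. The count was 41 with no filter on low counts, 7 and 8 without the 3-month replicates 1 and 2, and 16 and 5 without the 21-month replicates 1 and 2, with 0 higher in each. Over all genes the share called lower was then 1.38%, 0.346%, 0.194%, 0.237% and 0.0876%. The 23 calls came from 9 genes: 9 in D2 medium spiny-like, 7 in D1 medium spiny-like, 3 in OPC-like, 2 in oligodendrocyte-like, 1 in astrocyte-like, 1 in interneuron-like and 0 in microglia-like nuclei, where 7 genes were lower at an unadjusted p under 0.05. Among all genes of a class, the share called lower was 2.81% in D2 and 0.83% in D1 medium spiny-like, 0.115% in OPC-like, 0.413% in oligodendrocyte-like, 0.16% in astrocyte-like and 0.0573% in interneuron-like nuclei. The median log2 fold change of the splicing genes was -0.10 over these tests against 0.0024 for all genes, and it lay below the median of all genes in 7 of 7 classes. Both older libraries lay below both younger ones in 162 of the 362 cases, 44.8%, against 23.9% of all tests, and above in 12.98% against 22.9%. All 53 genes passed the filter on low counts in the D1, D2, astrocyte- and oligodendrocyte-like classes, 51 in microglia-like, 50 in interneuron-like and 49 in OPC-like nuclei. The genes below it in 1 or more of these classes were Sf3b4, Sf3b5, Sf3a2, Snrpb2 and Srsf12. The classes come from the same 4 libraries, so calls in different classes are not independent of each other.

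**Figure D3:**
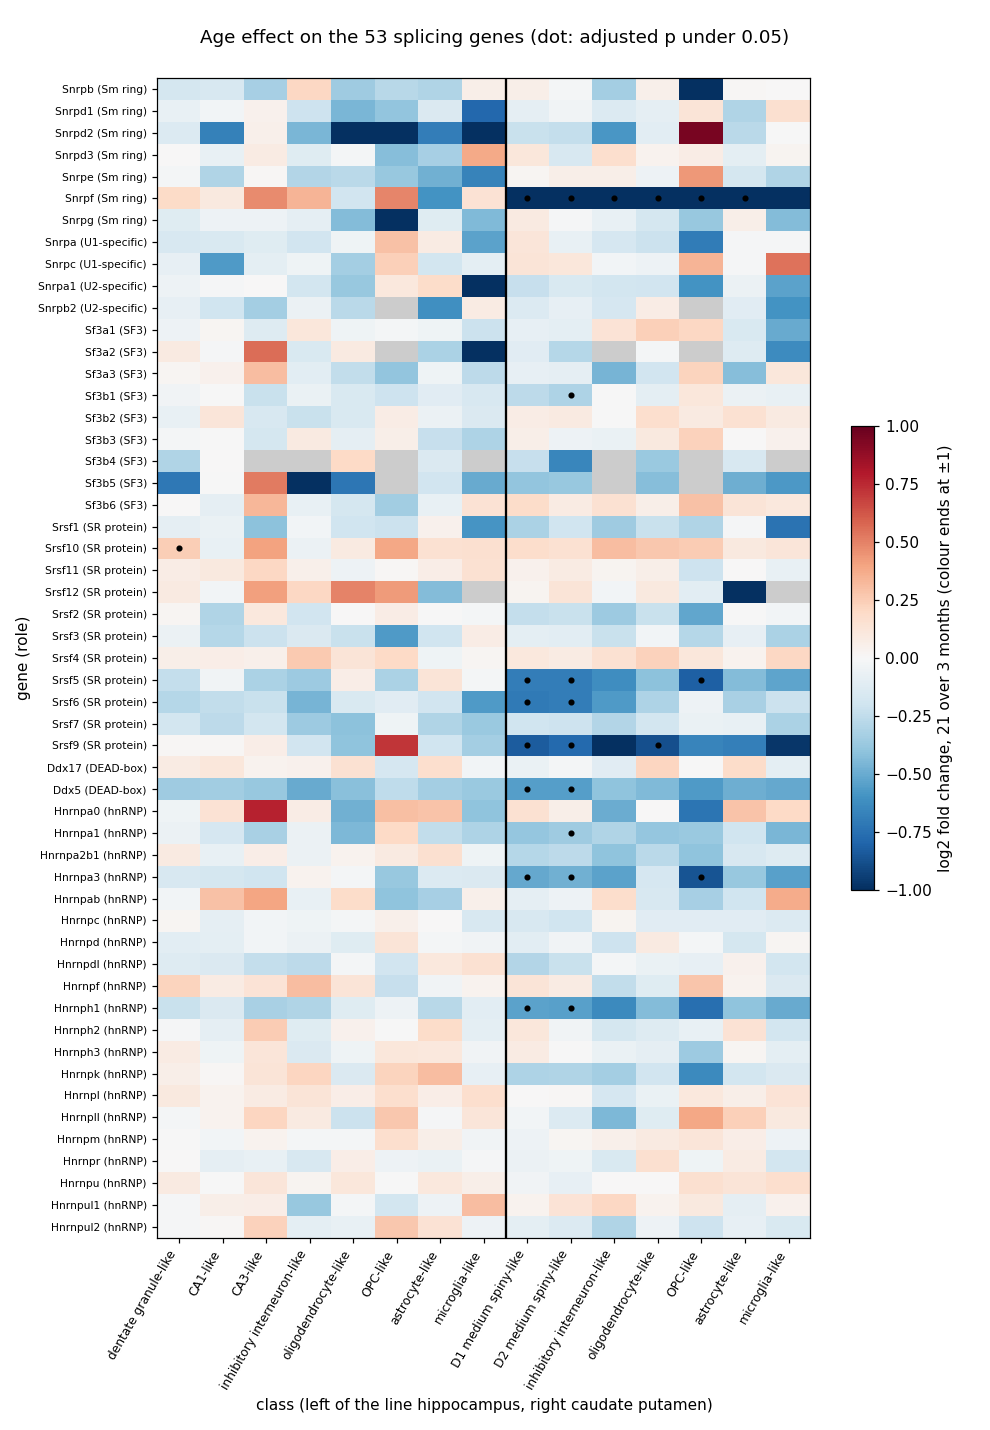
Log2 fold change of 21 over 3 months (colour, ending at ±1) for each of the 53 genes (y axis) in each tested class (x axis, hippocampus left of the line, caudate putamen right); a dot marks an adjusted p under 0.05 and grey a gene below the count filter. The caudate putamen has 23 dots, all on negative values, and the hippocampus 1, on Srsf10 in dentate granule-like nuclei.

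Snrpf, the Sm F protein of the ring, fell in more classes than any other of these genes. Its level in D1 medium spiny-like nuclei was 14.7 and 13.5 CPM at 3 months and 3.77 and 3.97 CPM at 21 months. In oligodendrocyte-like nuclei it was 30.2 and 26.1 CPM against 7.70 and 7.46 CPM. In both classes the younger libraries were high and the older ones low, and the ages also did not overlap in the D2, eccentric medium spiny-, interneuron-, OPC-, astrocyte- and microglia-like classes. Endothelial-like nuclei overlapped, at 55.2 and 16.8 CPM against 5.73 and 44.8 CPM on 2 to 17 UMIs per library.

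The log2 fold change of Snrpf was -1.90 ± 0.10 (SE) in D1 medium spiny-like nuclei (edgeR's quasi-likelihood test, adjusted p = 0.00459) and -1.81 ± 0.13 in D2 medium spiny-like nuclei (adjusted p = 0.00321), with older libraries lower in 2 of 2 in each class. In oligodendrocyte-like nuclei it was -1.84 ± 0.17 (edgeR, adjusted p = 0.000493) and in astrocyte-like nuclei -2.06 ± 0.28 (adjusted p = 0.00799). The depth was thinner in interneuron-like nuclei, with 21 and 53 UMIs at 3 months and 5 and 4 at 21 months, where the change was -2.75 ± 0.45 (edgeR, adjusted p = 0.0234). OPC-like nuclei held 33 and 34 UMIs against 7 and 3, with a change of -2.19 ± 0.47 (edgeR, adjusted p = 0.0226). Microglia-like nuclei had a like difference that did not pass, -1.54 ± 0.49 (edgeR, adjusted p = 0.289).

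Leaving out libraries touched some of these calls. Without the 3-month replicate 1 or the 3-month replicate 2 of the caudate putamen, the adjusted p of Snrpf was 0.0942 and 0.106 in D1 medium spiny-like nuclei (edgeR, log2 fold changes -1.86 and -1.94) and 0.0727 and 0.33 in interneuron-like nuclei. In OPC-like nuclei it was 0.311 without the 3-month replicate 1 and 0.351 without the 21-month replicate 2, and in astrocyte-like nuclei 0.0635 without the 3-month replicate 2 and 0.0631 without the 21-month replicate 2. DESeq2 gave adjusted p values of 0.248 in interneuron-like and 0.424 in OPC-like nuclei, and with equal numbers of nuclei the OPC-like value was 0.189. The calls in D2 medium spiny-like and oligodendrocyte-like nuclei held under each alternative run.

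The rest of the Sm ring had no call in the caudate putamen. Snrpe, which sits beside Snrpf in the ring and whose promoter is printed with it, had 6.86 and 5.73 CPM against 6.01 and 6.95 CPM in D1 medium spiny-like nuclei. Snrpg, which completes that subcomplex, had 10.0 and 10.6 CPM against 10.9 and 11.5 CPM. The ages overlapped for Snrpe, and both older libraries were slightly above the younger ones for Snrpg.

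Snrpf lies on chromosome 10 at 93583029 to 93589706 on the minus strand (GRCm38) and overlaps Ccdc38 and the non-coding gene 4933408J17Rik on the other strand. The sources used here do not state whether counting used strand. Of the other 8 genes tested within 300000 bases of it, 0 were called by age in the caudate putamen by edgeR. Ccdc38 had log2 fold changes of -1.34 to -0.67 in the 3 classes where it was tested, and 4933408J17Rik -0.03 to 0.05 in 2 classes. The Ccdc38 change in D1 medium spiny-like nuclei, -0.94 ± 0.17 (SE), was close to the threshold (edgeR, adjusted p = 0.0565). Its adjusted p was 0.108 in D2 medium spiny-like and 0.294 in oligodendrocyte-like nuclei (edgeR). Metap2, tested in 7 classes, ranged from -0.17 to 0.22. Pooling the named classes, Snrpf had 16.3 and 14.3 CPM in the 3-month and 4.50 and 4.22 CPM in the 21-month caudate putamen libraries. The file headers give Cell Ranger 6.1.2 for 3 of these libraries, among them both 21-month ones, and 7.0.0 for the 3-month replicate 2. Version and age are thus partly confounded, and the part of the version was not tested.

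**Figure D4:**
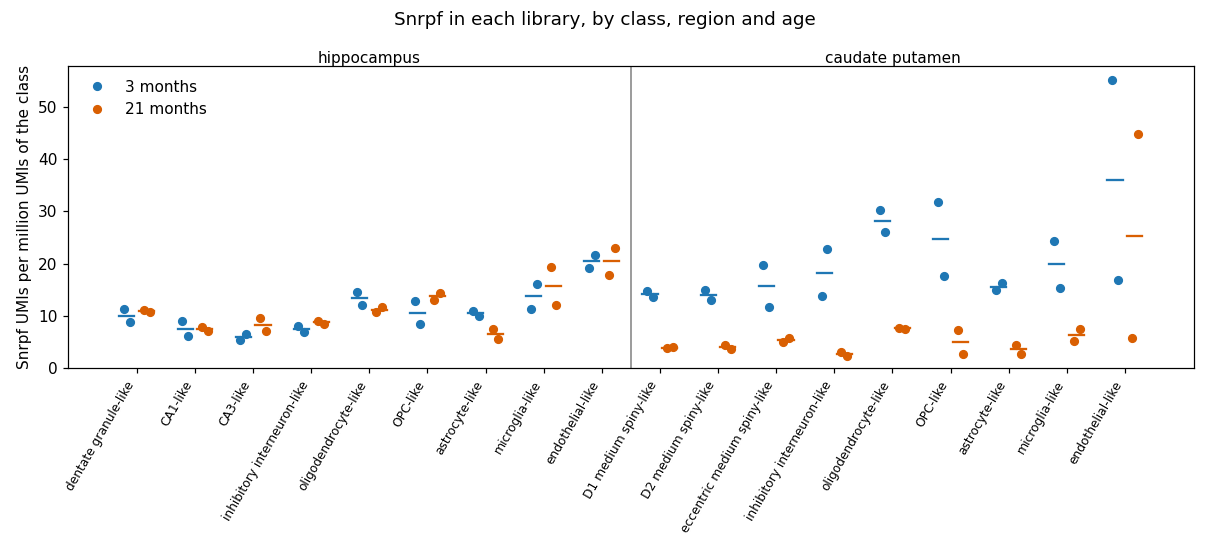
Snrpf level (y axis, CPM of the class) in each library by class (x axis), hippocampus on the left and caudate putamen on the right; points are libraries at 3 months (blue) or 21 months (orange) and bars are means of 2. In the caudate putamen the orange points of every class but the endothelial-like one lie below the blue points, while in the hippocampus the orange points lie above the blue ones in 3 classes, below in 2 and overlap in 4.

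Among the SR proteins, Srsf5, Srsf6 and Srsf9 fell in both medium spiny classes. Srsf5, an SR protein first described as an early growth response gene, had 126 and 117 CPM at 3 months and 78.6 and 74.7 CPM at 21 months in D1 medium spiny-like nuclei. Srsf9 had 28.3 and 23.8 CPM against 14.0 and 15.8 CPM, and Srsf6 25.4 and 22.8 CPM against 14.3 and 15.7 CPM. In each of the 3 genes both younger libraries lay well above both older ones. Their log2 fold changes in D1 medium spiny-like nuclei were -0.69 ± 0.069 for Srsf5, -0.83 ± 0.10 for Srsf9 and -0.70 ± 0.089 for Srsf6 (SE, edgeR's quasi-likelihood test, adjusted p = 0.0241, 0.0276 and 0.0276). In D2 medium spiny-like nuclei they were -0.69, -0.78 and -0.69 (edgeR, adjusted p = 0.00724, 0.0104 and 0.0313).

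Outside the medium spiny classes, Srsf5 fell in OPC-like nuclei, from 157 and 145 CPM to 75.3 and 91.0 CPM (log2 fold change -0.82 ± 0.16, edgeR, adjusted p = 0.00645). Srsf9 fell in oligodendrocyte-like nuclei, from 22.7 and 23.5 CPM to 11.3 and 12.9 CPM (-0.88 ± 0.16, edgeR, adjusted p = 0.0324), and lay below in 9 of 9 caudate putamen classes by 38.1% to 58.0%. Srsf5 lay below in 8 of 9 classes and Srsf6 also in 8 of 9. The family did not move as a block: Srsf4 and Srsf10 lay above in 4 and 5 of the 9 classes and below in 0. Neither had a call. Of the family's 76 tests, 54 had a negative fold change, where 49.6% of the tests of all genes were negative. As lower, 8 of the 76 were called, against 0.77% of the tests of all genes. That share was 2.81% in D2 and 0.83% in D1 medium spiny-like nuclei.

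The DEAD-box helicases differed. Ddx5, an RNA helicase that unwinds RNA in splicing and also works as a transcriptional co-regulator, had 445 and 427 CPM in the 3-month and 309 and 298 CPM in the 21-month libraries in D1 medium spiny-like nuclei. In D2 medium spiny-like nuclei it had 472 and 461 CPM against 329 and 318 CPM. Both older libraries lay below both younger ones in 9 of 9 caudate putamen classes, by 15.0% to 33.7%. The log2 fold change was -0.55 ± 0.076 in the D1 class (SE, edgeR's quasi-likelihood test, adjusted p = 0.0334) and -0.55 ± 0.071 in the D2 class (adjusted p = 0.0147). Its close relative Ddx17 had 141 and 142 CPM against 137 and 138 CPM in the D1 class and no call, with log2 fold changes of -0.11 to 0.21 over the 7 classes.

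**Figure D5:**
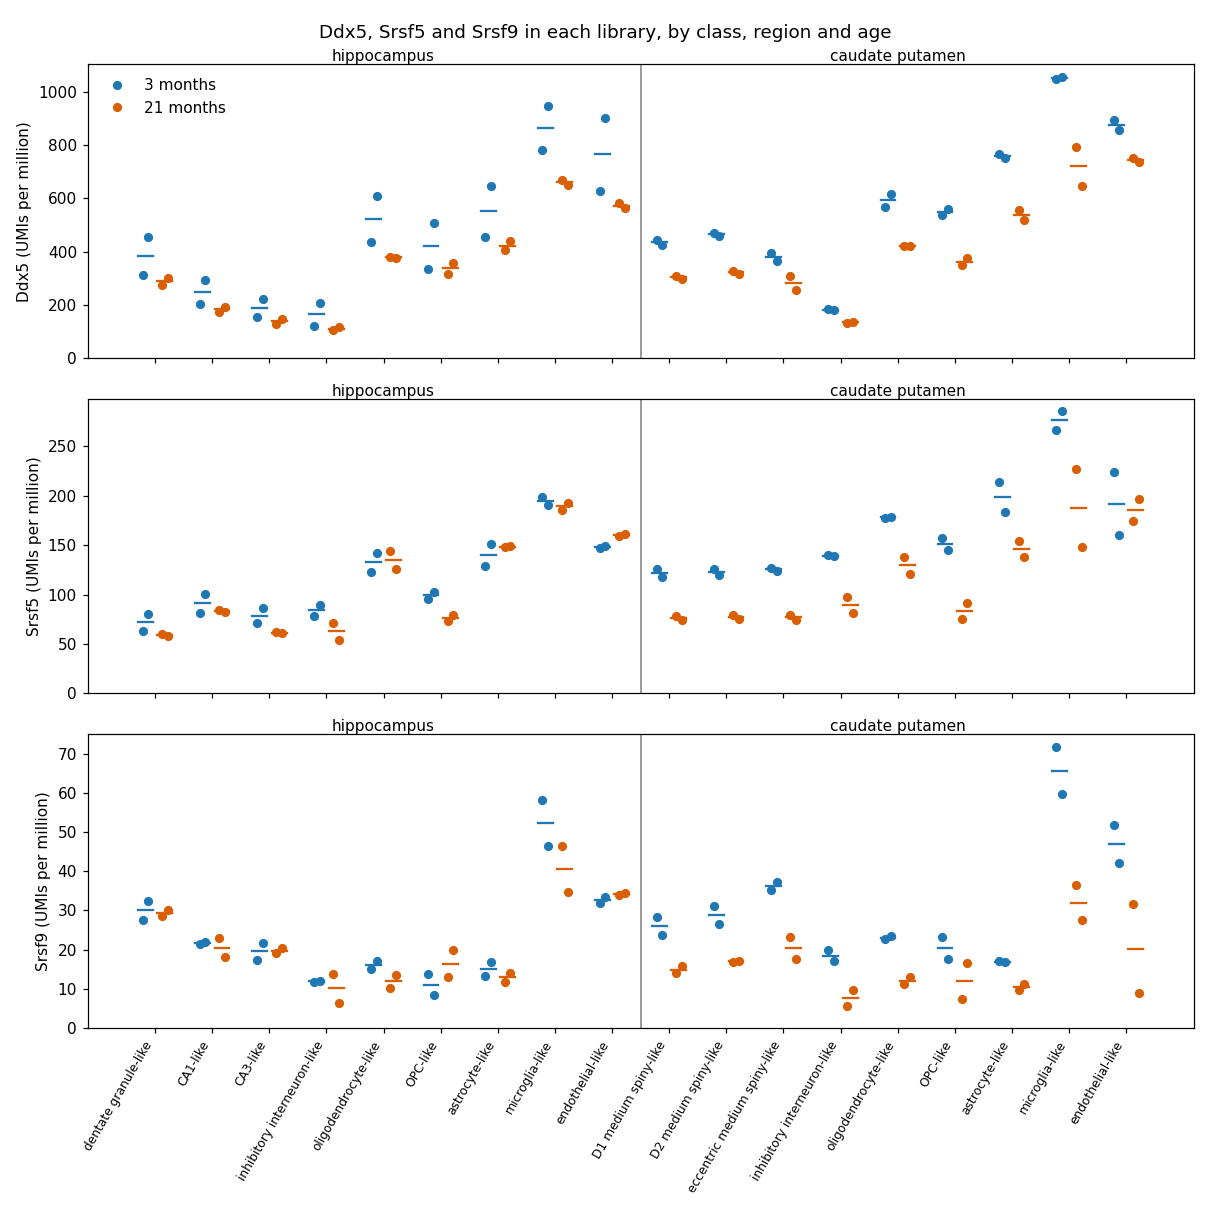
Levels of Ddx5, Srsf5 and Srsf9 (y axes, CPM of the class) in each library by class (x axis), hippocampus on the left and caudate putamen on the right; points are libraries at 3 months (blue) or 21 months (orange) and bars are means of 2. Ddx5 and Srsf9 are lower at 21 months in all 9 caudate putamen classes, while in the hippocampus 1 of the 3-month libraries has the highest Ddx5 of its class.

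Of the 20 hnRNP genes, Hnrnpa3 and Hnrnph1 fell in both medium spiny classes. Hnrnpa3, an hnRNP of the A/B family, had 64.7 and 59.5 CPM at 3 months and 46.8 and 41.8 CPM at 21 months in D1 medium spiny-like nuclei. Hnrnph1, which binds G-rich RNA, had 70.0 and 66.2 CPM against 49.2 and 46.4 CPM. The ages stood apart in both genes. Log2 fold changes in the D1 class were -0.51 ± 0.082 and -0.54 ± 0.069 (SE, edgeR's quasi-likelihood test, adjusted p = 0.043 and 0.028), and in the D2 class -0.48 and -0.54 (adjusted p = 0.0256 and 0.015).

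Hnrnpa3 also fell in OPC-like nuclei, from 140 and 110 CPM to 69.0 and 63.1 CPM (-0.86 ± 0.17, edgeR, adjusted p = 0.00857). Hnrnpa1, a repressor of many exons, fell in D2 medium spiny-like nuclei, from 24.4 and 21.8 CPM to 18.2 and 18.4 CPM (-0.36 ± 0.080, edgeR, adjusted p = 0.05), and this call was lost with DESeq2 (0.0707), with total UMIs (0.0781), with the length trend removed (0.0774), with equal numbers of nuclei (0.0512) and when any of the 4 libraries was left out (0.0858 to 0.203). Hnrnpa1, Hnrnph1 and Hnrnpk lay below in 9 of 9 classes. Hnrnpk, an hnRNP with KH domains, had no call, with -0.31 ± 0.073 in the D1 class (edgeR, adjusted p = 0.0899). Hnrnpu lay above in 4 classes and below in 1. In all, 95 of 140 hnRNP tests were negative, against the same 49.6% of all tests. As lower, 6 were called, against 0.77% of the tests of all genes, 2.81% in the D2 and 0.83% in the D1 class.

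Among the snRNP-specific and SF3 proteins 1 age difference was called in the caudate putamen. Sf3b1, the subunit of SF3b that clamps the branch site, fell in D2 medium spiny-like nuclei, from 151 and 155 CPM to 125 and 126 CPM (-0.31 ± 0.064, edgeR's quasi-likelihood test, adjusted p = 0.044). Its other tests in the caudate putamen were not called, and 32 of 56 SF3 tests were negative, against 49.6% of all tests. Over all genes, 0.77% of the tests in this region were called lower. Of the uncalled SF3 genes, Sf3b5 lay below in 6 of 9 classes and above in 1, with mean differences of -56.9% to 29.3%, and Sf3a2, a subunit of SF3a, lay below in 5 and above in 0. Sf3b6, a branch site protein of SF3b, lay above in 6 of 9 classes and below in 0, and Sf3b2, another SF3b subunit, above in 5 and below in 0. U1-specific genes (Snrpa and Snrpc) had 9 of 14 tests negative and U2-specific genes (Snrpa1 and Snrpb2) 12 of 13, with 0 called in either by edgeR or by DESeq2, and 0 and 1 lower at an unadjusted p under 0.05. Some of these uncalled differences were large, with summed levels from 0.053% to -37.2% for the U2-specific and from 10.8% to -24.2% for the U1-specific genes over the 9 classes.

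With a library left out, the medium spiny calls other than those of Snrpf kept their direction and many lost the threshold. In such fits the arm with 1 library is assumed to vary like the other. The kept direction follows largely from naming genes whose ages did not overlap in a called class. In the D1 class, the adjusted p of Srsf5, Srsf6, Srsf9 and Hnrnph1 by edgeR ranged from 0.128 to 0.147 without either 3-month replicate and from 0.0977 to 0.14 without the 21-month replicate 2, and these 4 held without the 21-month replicate 1. Ddx5 in the D1 class had 0.169 and 0.167 without 3-month replicates 1 and 2, 0.0523 and 0.143 without 21-month replicates 1 and 2, and 0.0525 with the length trend removed. Hnrnpa3 in the D1 class had 0.189 and 0.167 without the 3-month replicates 0.182 without the 21-month replicate 2, 0.0522 with total UMIs, 0.072 with the length trend removed and 0.0511 with equal numbers of nuclei. In the D2 class, without the 21-month replicate 2, the adjusted p was 0.0666 for Srsf5 and Srsf6, 0.0846 for Srsf9, 0.0984 for Hnrnph1, 0.0915 for Ddx5, 0.131 for Hnrnpa3 and 0.178 for Sf3b1. Without the 21-month replicate 1 it was 0.0593 for Srsf9, 0.0518 for Hnrnph1, 0.0583 for Ddx5, 0.054 for Hnrnpa3, 0.0906 for Srsf6 and 0.144 for Sf3b1. Without the 3-month replicates 1 and 2 it was 0.0533 and 0.0783 for Hnrnpa3, 0.0778 and 0.0771 for Srsf6, 0.0893 and 0.199 for Sf3b1, and 0.055 for Ddx5 without replicate 2.

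In glia, Srsf9 in oligodendrocyte-like nuclei had adjusted p values of 0.142 and 0.309 without the 3-month replicates 1 and 2 of the caudate putamen and 0.167 and 0.0877 without the 21-month replicates (edgeR), and 0.054 with DESeq2. In OPC-like nuclei Hnrnpa3 had 0.2 without the 3-month replicate 1 and 0.0985 without the 21-month replicate 2, and Srsf5 had 0.083 without the 3-month replicate 1 and 0.119 without the 21-month replicate 1. DESeq2 gave 0.245 and 0.237 for these last 2 genes and equal numbers of nuclei 0.0615 and 0.208, and Srsf5 had 0.0792 with doublets retained.

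Several measures moved with age beside these calls. The median UMI count of a D1 medium spiny-like nucleus was 14457 and 15730 in the 3-month and 12989.5 and 9769 in the 21-month caudate putamen libraries. The 10 microglia markers summed to 62.7 to 66.4 CPM in D1 medium spiny-like nuclei at 3 months and 66.5 to 67.5 CPM at 21 months, and the 10 oligodendrocyte markers to 165 to 168 CPM against 168 to 193 CPM, with 0 markers of either list at 0. The 9 astrocyte markers summed to 1092 to 1218 CPM against 1208 to 1448 CPM. Depth per nucleus was lower and these glial markers were as high or higher at 21 months, and their part in the calls was not tested.

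In the hippocampus 1 gene was called. Srsf10, an SR protein that acts as a repressor when it loses its phosphates, rose in dentate granule-like nuclei, from 60.5 and 61.9 CPM to 68.5 and 72.0 CPM. The younger libraries were close together and both older ones lay above them. The log2 fold change was 0.25 ± 0.063 (SE, edgeR's quasi-likelihood test, adjusted p = 0.0472), with 1 of 416 tests called higher and 0 lower, against 0.648% and 0.517% of the 109174 tests of all genes, and 2.44% as higher among the genes of dentate granule-like nuclei. DESeq2 also gave 1 and 0, against 0.768% and 0.673% of all tests. At an unadjusted p under 0.05 the counts were 5 higher and 37 lower, against 5.68% and 6.63% of all tests. The Srsf10 call was lost with total UMIs (adjusted p = 0.119), with doublets retained (0.0522), with equal numbers of nuclei (0.0775), and without the 3-month replicate 2 (0.142), the 21-month replicate 1 (0.217) or the 21-month replicate 2 (0.295).

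The count in the hippocampus changed with the libraries used. Without its 3-month replicate 1, 15 of 417 tests passed as lower and 2 as higher, against 2.54% and 1.38% of the tests of all genes without that library, and without any other hippocampal library 0 passed. Summed over the 53 genes, dentate granule-like nuclei had 2969 and 3359 CPM at 3 months and 2943 and 2998 CPM at 21 months, so the 3-month replicate 2 was the high library and the other 3 lay close together. Both older libraries lay below both younger ones in 5 of 9 classes (CA1-, interneuron-, OPC-, microglia- and oligodendrocyte-like), with mean differences of -3.77% to -10.1% over all 9. The median log2 fold change was -0.05 against -0.01 for all genes, and 37.0% of the 416 cases lay below against 27.9% of all tests, and 7.21% above against 15.0%. All 53 genes passed the filter in dentate granule- and CA1-like nuclei and 52 in CA3- and interneuron-like nuclei.

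Snrpf was not called in any hippocampal class. Its levels in dentate granule-like nuclei were 11.2 and 8.73 CPM at 3 months and 11.1 and 10.8 CPM at 21 months, and in OPC-like nuclei 12.8 and 8.38 CPM against 13.1 and 14.3 CPM on 10 to 14 UMIs per library. The ages overlapped in 4 of 9 classes, the older libraries lay above in 3 and below in 2, astrocyte- and oligodendrocyte-like. In astrocyte-like nuclei they went from 10.95 and 10.0 CPM to 7.41 and 5.66 CPM, a log2 fold change of -0.60 ± 0.24 that was not called (edgeR's quasi-likelihood test, adjusted p = 0.306).

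Ddx5 was also lower in the older libraries of most hippocampal classes. In dentate granule-like nuclei it had 313 and 455 CPM against 277 and 302 CPM, and in oligodendrocyte-like nuclei 437 and 609 CPM against 380 and 377 CPM. The 3-month replicate 2 was the highest library in each class, and the other younger library lay closer to the older ones. Both older libraries lay below both younger ones in 8 of 9 classes, OPC-like nuclei overlapping, with mean differences of -19.3% to -32.5% over all 9. None of the 8 tests was called, the smallest adjusted p by edgeR being 0.123 in oligodendrocyte-like nuclei (-0.42 ± 0.12).

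The glial classes, present in both regions, were fitted together to ask for the mean age effect and for its difference between regions. These contrasts share libraries with the regional ones and are no further evidence for them. For the mean of the 2 regions, 12 of 206 tests passed as lower and 0 as higher (edgeR's quasi-likelihood test), against 1.21% and 2.14% of the 50655 tests of all genes, and DESeq2 called 6 as lower and 0 as higher, against 1.09% and 1.46%. There were 6 calls in oligodendrocyte-, 3 in OPC-, 2 in astrocyte- and 1 in microglia-like nuclei, where 2.2%, 0.824%, 1.22% and 0.163% of all genes were called lower, and the median log2 fold change was -0.09 against -0.01 for all genes. The count rose without the hippocampal 3-month replicate 1 and fell without any other library, in fits where 1 group holds 1 library. The share of all genes called lower rose and fell in the same runs.

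Ddx5 fell in all 4 glial classes tested. Its mean log2 fold changes were -0.43 ± 0.084 in oligodendrocyte-like (SE, edgeR's quasi-likelihood test, adjusted p = 0.0158), -0.41 ± 0.096 in OPC-like (0.0188), -0.44 ± 0.094 in microglia-like (0.0277) and -0.41 ± 0.091 in astrocyte-like nuclei (0.0344), with OPC-like levels overlapping in the hippocampus. Each call was lost when some 1 library was left out. Without the hippocampal 21-month replicate 1 the adjusted p values were 0.0803, 0.115, 0.112 and 0.171 in the same order, and without the caudate putamen 3-month replicate 2 0.0783, 0.0704, 0.169 and 0.118. Without the hippocampal 3-month replicate 2, the hippocampal library with the highest Ddx5 in each class, the OPC-like value was -0.24 with an adjusted p of 0.243, and the astrocyte- and microglia-like adjusted p values were 0.0582 and 0.128. Leaving out the hippocampal 21-month replicate 2 gave 0.0726, 0.0753 and 0.0918 in oligodendrocyte-, microglia- and astrocyte-like nuclei. Leaving out the caudate putamen 3-month replicate 1 gave 0.0886 and 0.0907 in microglia- and astrocyte-like nuclei, the 21-month replicate 1 0.0782 and 0.0892 in OPC- and astrocyte-like nuclei, and the 21-month replicate 2 0.0787 and 0.101 in microglia- and astrocyte-like nuclei. DESeq2 gave 0.0723 in OPC-like and 0.336 in microglia-like nuclei, and the length trend removed gave 0.0871 and 0.252. Total UMIs gave 0.0504 in astrocyte-like and retained doublets 0.141 in OPC-like nuclei.

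For the same mean, Snrpf fell by 1.33 in astrocyte-like and by 1.02 in oligodendrocyte-like nuclei on the log2 scale (edgeR's quasi-likelihood test, adjusted p = 0.00349 and 0.00238), and both calls held under each alternative run. In the caudate putamen alone its log2 fold changes were -2.06 and -1.84, and in the hippocampus Snrpf was called in neither class. Hnrnpa3 and Srsf5 fell in OPC-like nuclei, by 0.62 and 0.57 (adjusted p = 0.00181 and 0.00304), and Hnrnpa3 held under each alternative run while Srsf5 lost the threshold with DESeq2 (0.0668), equal numbers of nuclei (0.0557) and the length trend removed (0.0771). In oligodendrocyte-like nuclei Srsf9 fell by 0.64, Srsf7 by 0.30 and Hnrnpa1 by 0.42 (adjusted p = 0.0183, 0.0263 and 0.0361). Srsf7, an SR protein with a zinc knuckle, went from 125 and 141 CPM to 97.2 and 96.2 CPM in the hippocampus and from 131 and 133 CPM to 119 and 106 CPM in the caudate putamen, with no overlap in either region. Hnrnph1 was also called in this class with overlapping groups.

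Each of those 3 oligodendrocyte calls was lost under some alternatives. Srsf9 had adjusted p values by edgeR of 0.0512 and 0.0953 without the hippocampal 3-month replicate 2 and 21-month replicate 1, 0.0583 and 0.0829 without the caudate putamen 3-month replicates, and 0.0572 without the caudate putamen 21-month replicate 1. Srsf7 ranged from 0.066 to 0.117 where it was lost, which was without each library except the hippocampal 3-month replicate 1 and the caudate putamen 21-month replicate 1, and Hnrnpa1 from 0.0615 to 0.14, without each library except the hippocampal 3-month replicate 1. Srsf7 was also lost with DESeq2 (0.0726) and with the length trend removed (0.101), and Hnrnpa1 with DESeq2 (0.111), doublets retained (0.0617), the length trend removed (0.113) and equal numbers of nuclei (0.0742).

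No splicing gene was called for a difference between the age effects of the regions: 0 of 206 tests passed by edgeR's quasi-likelihood test and 0 by DESeq2, with 2 positive and 13 negative at an unadjusted p under 0.05, against 0.0% of 50655 tests of all genes by edgeR in either direction, 0.0118% positive and 0.00592% negative by DESeq2, and 3.06% and 2.15% at an unadjusted p under 0.05. The difference, caudate putamen minus hippocampus, for Snrpf was -2.68 ± 0.68 in OPC-like (edgeR, adjusted p = 0.501), -1.68 ± 0.71 in microglia-like (1), -1.64 ± 0.27 in oligodendrocyte-like (0.623) and -1.46 ± 0.38 in astrocyte-like nuclei (0.931). For Ddx5 it ranged from -0.31 to -0.02 (adjusted p = 0.912 to 1). A larger fall of Snrpf in the caudate putamen was therefore not shown at the threshold in glia, and neurons of the 2 regions were not compared.

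Region itself was compared in the 4 glial classes over the 2 ages. In all, 4 of 206 tests passed as higher in the caudate putamen and 0 as lower (edgeR's quasi-likelihood test), against 7.16% and 5.62% of all tests. At an unadjusted p under 0.05, 16 were higher and 4 lower, against 12.4% and 11.3% of all tests. The count was 1 with DESeq2, 2 with equal numbers of nuclei (1 higher, 1 lower), and 17 with doublets retained (8 higher, 9 lower). With doublets retained, 15.5% of the tests of all genes passed as higher and 11.96% as lower. The splicing genes lay below these shares, at 3.81% and 4.29% of 210 tests. With 1 library left out it ranged from 0, without the hippocampal 21-month replicate 1, to 9 without its 3-month replicate 2 (8 higher, 1 lower). Ddx5 was higher in caudate putamen astrocyte-like nuclei, with 766, 751, 555 and 519 CPM against 456, 648, 407 and 439 CPM in the hippocampus (3-month then 21-month libraries), a log2 difference of 0.38 ± 0.091 (adjusted p = 0.0102). Within each age the regions did not overlap. Srsf7 was higher in caudate putamen OPC-like nuclei, with 120, 111, 113 and 102 CPM against 74.8, 90.4, 68.1 and 85.96 CPM (0.42 ± 0.12, edgeR, adjusted p = 0.0255), again without overlap.

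The Ddx5 call was lost without the hippocampal 21-month replicate 1 (adjusted p = 0.064 by edgeR). The Srsf7 call was lost with DESeq2 (0.285), with equal numbers of nuclei (0.205), with the length trend removed (0.185), and without the hippocampal 3-month replicate 1 (0.0951) or 21-month replicate 1 (0.153), the caudate putamen 3-month replicates (0.0848 and 0.0553) or its 21-month replicate 1 (0.0931). Hnrnpa0 in oligodendrocyte-like and Srsf5 in astrocyte-like nuclei were called with overlapping groups. Of all genes, 11.2% were called higher in the caudate putamen in astrocyte-, 2.74% in OPC- and 9.11% in oligodendrocyte-like nuclei. Other lists differed by region as well: of the immediate early genes 25 of 39 tests passed as higher in the caudate putamen and 2 as lower, led by Egr1 in OPC-like nuclei (5.59, edgeR, adjusted p = 8.13e-10). The heat shock list had 4 of 72 higher and 0 lower, and the tissue splicing regulators 16 of 110 higher and 12 lower. Their part in the splicing gene calls was not tested.

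Other genes of the pathway were taken from lists chosen by function. Of 63 other spliceosome proteins, such as those of the tri-snRNP and the catalytic core, 1 of 420 tests in the caudate putamen passed as lower and 0 as higher by edgeR's quasi-likelihood test, 3 and 0 by DESeq2, and 34 and 5 at an unadjusted p under 0.05. Over all genes 0.77% passed as lower and 0.701% as higher, and 7.11% and 7.59% at an unadjusted p under 0.05, which are the shares to set beside the counts of each list in this region. The called gene was Rbm17, a protein of 3′ splice site choice, in D2 medium spiny-like nuclei (-0.47 ± 0.079, edgeR, adjusted p = 0.0268). Class medians of the list lay between -0.08 and -0.0063. Of 16 SR-related proteins and SR protein kinases, 0 of 111 tests passed by edgeR and 1 as lower by DESeq2, with 20 lower and 0 higher at an unadjusted p under 0.05 and medians of -0.13 to -0.00094. Of 12 genes of Sm ring assembly, 0 of 70 tests passed by edgeR or DESeq2, with 1 lower and 5 higher at an unadjusted p under 0.05.

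Of 31 tissue splicing regulators, 3 of 198 tests in the caudate putamen passed as lower and 1 as higher by edgeR, against 0.77% and 0.701% of all tests, with 5 and 1 by DESeq2 and 23 and 10 at an unadjusted p under 0.05. Celf3, a neuronal CELF protein, fell in the D1 and D2 classes (-0.44 and -0.46, edgeR, adjusted p = 0.0366 and 0.0167), Celf5 fell in the D2 class (-0.34, adjusted p = 0.0499), and Nova2, a neuronal KH-domain regulator, rose there (0.29, adjusted p = 0.0462). Of 18 other abundant nuclear RNA-binding proteins, 2 of 123 tests passed as lower and 0 as higher, Ewsr1 (-0.35) and the cold-inducible Rbm3 (-0.36) in the D2 class (edgeR, adjusted p = 0.0341 and 0.0472), with 2 lower and 0 higher by DESeq2 and 23 lower and 8 higher at an unadjusted p under 0.05.

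In the hippocampus these lists held 2 calls, where 0.517% of the tests of all genes passed as lower and 0.648% as higher, and 6.63% and 5.68% at an unadjusted p under 0.05. Khdrbs3, a STAR family regulator of neuronal exons, fell in dentate granule-like nuclei (-1.26 ± 0.095, SE, edgeR, adjusted p = 1.55e-05), the 1 call lower and 0 higher among 222 tests of tissue regulators. Cirbp, a cold-inducible RNA-binding protein, rose there (0.43 ± 0.094, edgeR, adjusted p = 0.0247), the 1 call higher and 0 lower among 140 tests of the other nuclear RNA-binding proteins. DESeq2 called 2 tests of tissue regulators lower and 1 of the other RNA-binding proteins higher, and 2 higher among the SR-related proteins and kinases, where edgeR called 0 of 125, with 8 higher and 8 lower at an unadjusted p under 0.05. For the mean of both regions in glia, 1.21% of the tests of all genes passed as lower and 2.14% as higher. Cirbp rose in astrocyte- and oligodendrocyte-like nuclei (0.45 and 0.48, edgeR, adjusted p = 0.0249 and 0.0215), and the other nuclear RNA-binding proteins had 3 of 70 tests called higher and 1 lower. Tissue regulators had 4 of 110 called lower and 0 higher, and the SR-related list 1 of 64 higher, Rsrp1 in astrocyte-like nuclei (0.30, edgeR, adjusted p = 0.0361). These contrasts share libraries with the regional ones.

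Lists of stress and growth genes were counted in the same libraries, where 0.77% of all tests in the caudate putamen and 0.517% in the hippocampus passed as lower, and 0.701% and 0.648% as higher. Of 21 heat shock and chaperone genes, 10 of 128 tests in the caudate putamen and 15 of 145 in the hippocampus passed as lower and 0 as higher by edgeR's quasi-likelihood test, with 46 and 68 lower and 0 higher at an unadjusted p under 0.05, and 10 and 19 lower and 0 higher by DESeq2. Their summed level in D1 medium spiny-like nuclei was 846 and 822 CPM at 3 months and 724 and 722 CPM at 21 months. Hspa8, a constitutive chaperone, fell there by 0.54 on the log2 scale, and Hspa5, the chaperone of the endoplasmic reticulum, by 0.61 (edgeR, adjusted p = 0.0254 and 0.043). Of 82 cytosolic ribosomal protein genes, 8 of 546 tests in the caudate putamen passed as lower and 1 as higher by edgeR, 11 and 0 by DESeq2, and 76 and 8 at an unadjusted p under 0.05. In the hippocampus 1 of 624 passed as lower by edgeR, 2 by DESeq2 and 126 at an unadjusted p under 0.05, with 0 higher by each. Of 14 immediate early genes, 1 of 69 tests passed as lower in the caudate putamen, Nr4a1 in oligodendrocyte-like nuclei (-1.06, edgeR, adjusted p = 0.0424), and 0 as higher, where DESeq2 called 7 lower and 15 were lower and 4 higher at an unadjusted p under 0.05. In the hippocampus 3 of 79 passed as lower by edgeR and 3 by DESeq2, with 17 lower and 2 higher at an unadjusted p under 0.05. For the mean of both regions in glia, 22 of 72 heat shock, 7 of 311 ribosomal and 2 of 39 immediate early tests passed as lower by edgeR. In each list 0 passed as higher, where 1.21% of all tests passed as lower and 2.14% as higher. The part of these changes in the splicing gene calls was not tested.

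In the caudate putamen the age effect of the splicing genes also ran with gene length. Across the 49 to 53 tested genes of a caudate putamen class, Spearman's rho between gene length and the log2 fold change was 0.28 to 0.59, against 0.093 to 0.29 across all genes of the class. In the hippocampus it was 0.019 to 0.40 against 0.066 to 0.27, and below that of all genes in CA3-like (0.019 against 0.066), OPC-like (0.097 against 0.27) and astrocyte-like nuclei (0.14 against 0.15). These are correlations across genes that share the same libraries, and genes are not independent replicates. Among all genes within the length range of the splicing genes, 50.4% to 56.3% of the fold changes in a caudate putamen class were negative. With the trend over all genes removed, 20 tests in the caudate putamen were called in place of 23, and 0.627% of all tests as lower in place of 0.77%. For the mean of both regions in glia it was 6 in place of 12, and 1.13% in place of 1.21%. The trend removed was weaker than that of the splicing genes, so this run does not remove their own relation with length.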

How the data were processed

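Single-nucleus RNA was measured in 8 libraries. The deposited matrices hold UMI counts per gene and barcode, made with Cell Ranger 4.0.0 on mm10 per the submitters' processing notes, while the file headers give 6.1.2 for 7 libraries and 7.0.0 for the caudate putamen 3-month replicate 2. Whether intronic reads or strand were used is not given in the sources used here.

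Barcodes with under 500 genes (1307) or over 5% mitochondrial UMIs (3) were removed, and 10641 Scrublet doublets (2.55% to 15.6% per library). The automatic threshold was used except in the hippocampal 3-month replicate 2, where the expected share was used. In that library the automatic threshold called 40.4%, against an expected 16.1%. How many doublets remain in it was not tested. Each region was clustered (scanpy 1.11.5, 3000 variable genes without the 53, 40 principal components, 20 neighbours, Leiden resolution 1) into 34 hippocampal and 28 caudate putamen clusters, named from marker lists. Names were rebuilt here and may differ from the study's.

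UMIs were summed per class and library and tested with edgeR 4.0.16 (R 4.3.3): TMM scaling, filterByExpr, quasi-likelihood test, Benjamini-Hochberg adjustment over all genes of a class, call at an adjusted p under 0.05. Glia were fitted on 8 libraries with 4 group means, neurons on the 4 of their region. Standard errors are the log2 fold change over the square root of F. DESeq2 1.42.0, total UMIs, no filter, a replicate block, retained doublets, Leiden resolution 0.5, a length trend, equal numbers of nuclei, glia fitted by region and each library left out were alternatives. The steps were tested on simulated data. In both simulated comparisons (age in D2 medium spiny-like nuclei and the mean age effect in oligodendrocyte-like nuclei) unchanged genes made up more of the calls than the 5% the threshold allows, more so in the D2 class, and most changes of the smallest size were missed. Gene positions came from GENCODE vM21, in which 32235 of 32285 identifiers were found.

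Named genes were up to 10 per comparison, those called in the most classes and then with the smallest adjusted p among genes whose groups did not overlap in a called class, with Snrpf and Ddx5 always described, and at most 3 per other list. S6 kinase genes were left out of the ribosomal list. The members and lists were chosen with earlier results of these data known.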

Additional observations from a re-analysis of the deposited data

Results flagged for a closer look

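Snrpf levels in OPC-like nuclei differed by age in opposite directions in the 2 regions, and the hippocampal difference was not called (0.49 ± 0.46 on the log2 scale, edgeR's quasi-likelihood test, adjusted p = 0.777). Both 21-month libraries lay above both 3-month libraries in the hippocampus (12.8 and 8.38 CPM against 13.1 and 14.3 CPM) and below them in the caudate putamen (31.8 and 17.6 CPM against 7.32 and 2.79 CPM). The caudate putamen age effect minus the hippocampal one was -2.68 ± 0.68 on the log2 scale and was not called by edgeR's quasi-likelihood test (adjusted p = 0.501). It rests on 3 to 34 UMIs per library.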

How the results depend on the processing

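All 37 named results kept their direction in all 526 alternative values, and 5 never lost the threshold. The named genes were chosen as called and with groups that did not overlap in a called class. Kept directions with a library left out therefore follow largely from that choice. DESeq2 lost 12 of the 37, equal numbers of nuclei 9, the length trend 9, total UMIs 4 and retained doublets 4. Leaving out any caudate putamen library, which leaves 1 library in a group, lost more of them than DESeq2 did. The 1 call by age in the hippocampus became 0 with total UMIs, with doublets retained and with equal numbers of nuclei. It became 12 with no filter on low counts (11 lower, 1 higher), where 1.80% of all tests passed as lower and 1.07% as higher. The count also changed with the library left out. The 23 calls in the caudate putamen became 41 with no filter and 5 to 29 with 1 library of either region left out. Glia were fitted on 8 libraries, so leaving out a hippocampal library can also change this count. It was 29 without the hippocampal 3-month replicate 1. It was 7 and 8 without the caudate putamen 3-month replicates 1 and 2, and 16 and 5 without its 21-month replicates 1 and 2. The 12 calls for the mean of both regions became 6 with DESeq2, 6 with the length trend removed and 4 to 22 with 1 library left out. The 0 calls for a regional difference became 1 with no filter and stayed 0 with any library left out. The 4 calls by region became 1 with DESeq2, 17 with doublets retained (8 higher, 9 lower), 2 with equal numbers of nuclei and 0 to 9 with 1 library left out: 9 without the hippocampal 3-month replicate 2, 0 without its 21-month replicate 1, and 2 without either caudate putamen 3-month replicate or its 21-month replicate 1. With doublets retained, larger shares of all tests passed by region, 15.5% as higher and 11.96% as lower.

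The labels give no pairing of the samples by replicate number. With 2 pairs per region, deviations of same-numbered libraries correlated at -0.14 to 0.21 in the hippocampus. In the caudate putamen they correlated at 0.02 to 0.38, positive in every class. With the replicate block the caudate putamen count was 42, all lower. Of the tests of all genes there, 3.05% then passed as lower, against 0.77% without the block. The other counts were 1 in the hippocampus (higher, 0.929% of all tests) and 13 for the mean of both regions (lower, 2.21%). They were 0 for the regional difference and 6 by region (higher, 4.94%). In CA3-like nuclei, a crossed pairing chosen after seeing the data called 217 genes against 21 without and 17 with the block, with 0 of the 53 in each. Depth limits the OPC- and interneuron-like values of Snrpf, which rest on few UMIs.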
